A study of Homo sapiens with 12 samples.

Results

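The long non-coding RNAs and small-RNA host genes of HepG2 cells were followed across 4 culture media. They were taken by name from the deposited table, as genes whose symbol starts with LINC or SNHG, ends in -AS and a digit, -DT or -IT1, has the form of a microRNA host gene (MIR...HG), or is MALAT1, NEAT1, GAS5 or H19. This gave 243 of the 10945 rows with a gene symbol: 140 antisense, 18 divergent (-DT) and 2 intronic (-IT1) transcripts, 55 LINC genes, 11 microRNA host genes, 14 SNHG genes and 3 of the 4 RNAs given by name. H19 was not analysed here. HepG2 is an established human liver cancer line, with its genotype given as wild type, and a single line that stands in for hepatocytes. It was kept in EMEM, a minimal medium, with heat-inactivated fetal bovine serum, sodium pyruvate and glutamine. After seeding in EMEM with serum, 24 h later the wells received fresh EMEM, DMEM low in glucose (LGDMEM), DMEM high in glucose (HGDMEM) or Plasmax, a medium modelled on human plasma. Every medium, the EMEM control included, carried 10% of the same kind of serum and was renewed after 48 h, and cells were collected 96 h after the switch. Each medium had 3 libraries, made with a 3′ mRNA kit that counts tags near the polyadenylated end.

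Long non-coding RNAs act as RNA without being translated, and many stay in the nucleus. NEAT1 is the scaffold of paraspeckles, nuclear bodies built from RNA-binding proteins, and MALAT1 gathers in nuclear speckles next to splicing factors. GAS5 and the SNHG genes carry small nucleolar RNAs (snoRNAs) in their introns. The snoRNAs guide chemical modification of ribosomal and other RNAs, while many of the spliced host transcripts are removed by nonsense-mediated decay. MicroRNA host genes carry microRNA hairpins in the same way. Antisense and divergent transcripts are named after a protein-coding neighbour, here called the namesake.

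Levels are in CPM, counts scaled to library size with edgeR's TMM factors, given as mean ± SD of 3 libraries where no single values are shown. A gene is called when edgeR's quasi-likelihood test over all 12 libraries gave a Benjamini-Hochberg adjusted p under 0.05 across the 10945 genes. Log2 fold changes stand with their standard error (SE). Counts on rows with a symbol summed to 3995365 to 5840057 per library. The labels do not say whether the replicates are separate cultures. The p-values therefore cover only library-to-library spread, possibly technical. All 12 hepatocyte markers examined were measured, with summed levels of 27710 to 33490 CPM in the 9 libraries without Plasmax and 16520 to 18300 CPM in Plasmax. Of the 12, 1 rose and 7 fell against EMEM, 3 rose and 6 fell against LGDMEM, and 2 rose and 6 fell against HGDMEM. The 3 with the highest mean level, ALB, APOA2 and AFP, fell in each, while SERPINA1 rose (0.57, 0.48 and 0.52). Of 8 leukocyte markers 3 were measured (summed 1966 to 3294 CPM, nearly all of it LYZ), and of 8 endothelial and stromal markers 2 were measured (3.64 to 14.9 CPM). The share of counts on 13 mitochondrial genes was 12.3 to 14.1% in Plasmax and 9.8 to 12.3% elsewhere. Of the 3 marker sums only that of the hepatocyte markers separated Plasmax from the 9 other libraries. The leukocyte sum in Plasmax (1966 to 2193 CPM) overlapped with LGDMEM (2122 to 2885 CPM), the endothelial and stromal sum in Plasmax lay within the range of the others, and the ranges of the mitochondrial share met at 12.3%. The part of these values in the results was not tested. In bulk RNA, fewer cells of a kind and less RNA per cell cannot be told apart. LGDMEM 3 stood apart on the second principal component, and values without it are given where they change a call that is described.

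Long non-coding RNAs were mostly higher in Plasmax where they changed, and rarely lower. They took 0.695 to 0.735% of the counts in the Plasmax libraries and 0.532 to 0.637% in the 9 others, without overlap. Against EMEM 26 of the 243 were called higher, which is 10.7% beside 10.0% of all genes tested, and 4 were called lower, 1.65% beside 12.1%. Against LGDMEM 28 rose (11.5% beside 9.48% of all genes) and 2 fell (0.823% beside 11.7%). Against HGDMEM 35 rose (14.4% beside 12.8%) and 5 fell (2.06% beside 14.1%). Over all levels together, the share that rose was therefore near that of genes in general, and the share that fell was below it. The median log2 fold change of the 243 was 0.31, 0.26 and 0.34 in the 3 comparisons, where the medians of all genes were 0.02, 0.00 and 0.01. The 3 comparisons share the Plasmax libraries.

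The members had lower counts than genes in general, with a median level of 5.22 CPM against 22.6 CPM. Whether this limited how many were called was not tested. Of the 73 members at 10 CPM or more, 17 were called higher in Plasmax than in EMEM (23.3%, beside 11.8% of all 7843 genes at that level) and 2 lower (2.74% beside 15.4%). Of the 170 below 10 CPM, 9 were called higher (5.29% beside 5.54%) and 2 lower (1.18% beside 3.77%). At 10 CPM or more, 23.3% were called higher against LGDMEM (beside 11.2%) and 27.4% against HGDMEM (beside 15%). Called lower there were 0% (beside 14.7%) and 4.11% (beside 17.4%). Below 10 CPM, 6.47% (beside 5.25%) and 8.82% (beside 7.38%) were called higher, and 1.18% (beside 4.16%) and 1.18% (beside 5.64%) lower. Every row of the table reached 2.51 CPM in at least 3 libraries, and 26 members reached it in no more than 3. Only 2 members, NR2F1-AS1 and LINC00326, reached it in Plasmax alone, and both were called higher there than in EMEM, so their presence in the table already depended on a high Plasmax level.

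**Figure D1:**
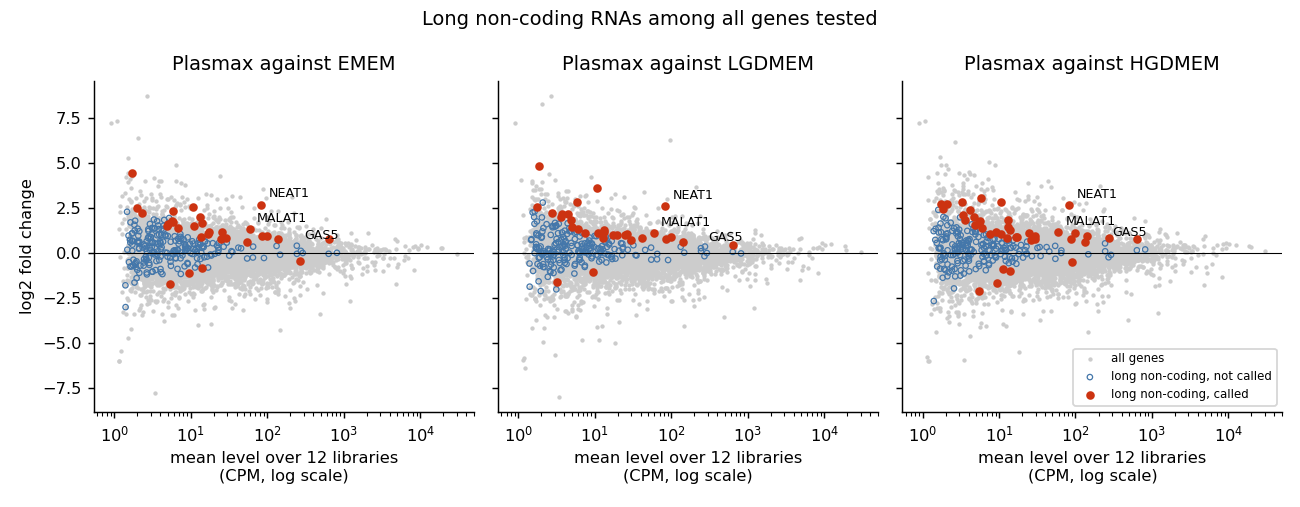
Log2 fold change of each gene (vertical axis) against its mean level over 12 libraries in CPM (horizontal, log scale), for Plasmax against each other medium. Grey points are all 10945 genes, open blue circles long non-coding RNAs not called and red points those called, 26 higher and 4 lower against EMEM. Red points lie mostly above 0, with NEAT1 at 2.66, 2.58 and 2.63.

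In all, 57 members were called in at least 1 comparison with Plasmax, 50 higher and 7 lower, and none in both directions. That is 23.5% of the members beside 34.0% of all genes, with 20.6% beside 16.6% for higher and 2.88% beside 17.5% for lower. Higher in all 3 comparisons were 14 members (5.76%, beside 5.83% of all genes), and lower in all 3 was 1, the antisense RNA IDH1-AS1 (beside 8.43% of all genes). The 14 were NEAT1, MALAT1, SNHG1, SNHG5, SNHG8, EPB41L4A-AS1, MRPL20-AS1, SLC16A1-AS1, ZMIZ1-AS1, ZNF528-AS1, NR2F1-AS1, LINC00511, LINC00662 and MIR34AHG. NR2F1-AS1 is in the table only through its Plasmax level. In 13 of them every Plasmax library lay above the other 9, the exception being SNHG1. The same libraries gave the calls, so this describes the 14 and adds no support. For NR2F1-AS1 it followed from how that RNA entered the table. Over all members, every Plasmax library lay above the other 9 for 30 (12.3%, beside 10.9% of all genes). For 4 all Plasmax libraries lay below the rest (1.65% beside 11.3%). Of the 14, NEAT1, MALAT1, EPB41L4A-AS1, SLC16A1-AS1, ZMIZ1-AS1 and ZNF528-AS1 were called in all 3 comparisons under each of 22 alternative analyses. Over the 4 media together 30 members differed (12.3%), where 22.9% of all genes did.

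**Figure D2:**
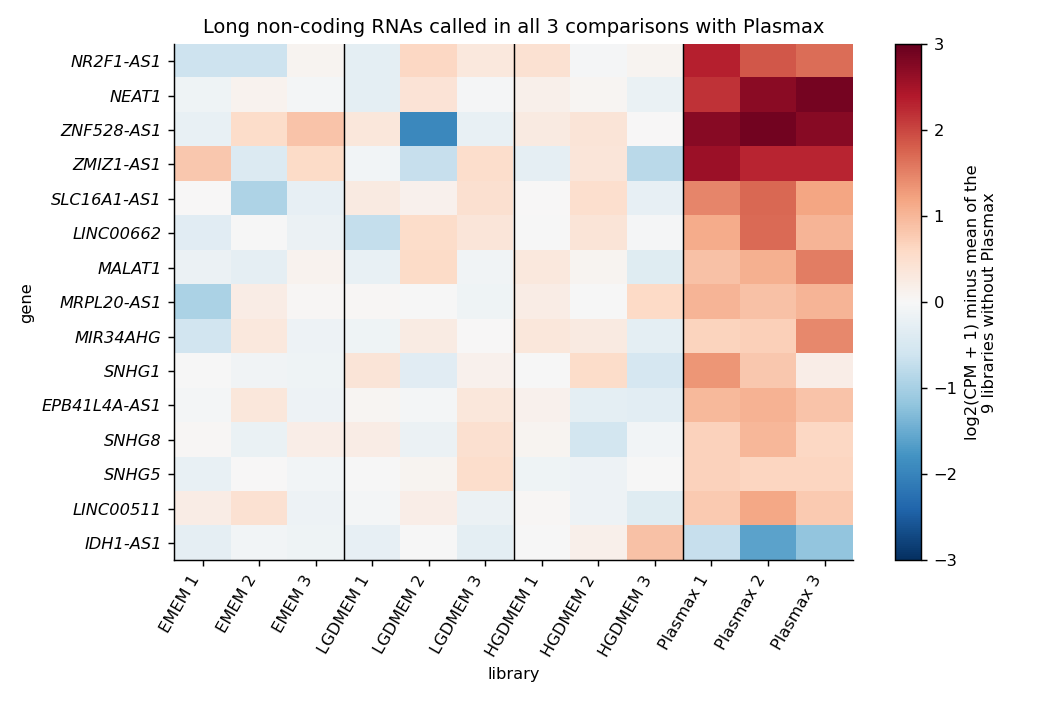
Heat map of the 15 long non-coding RNAs called in all 3 comparisons with Plasmax (rows, ordered by log2 fold change against EMEM) in the 12 libraries (columns). Colour is log2(CPM + 1) minus the gene's mean over the 9 libraries without Plasmax, red higher and blue lower. The last 3 columns are red for 14 genes and blue for IDH1-AS1, and SNHG1 in Plasmax 3 is the palest of the red cells.

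NEAT1 was higher in Plasmax than in each other medium. It was at 32.5, 38.8 and 34.5 CPM in the EMEM libraries, 29.03, 47.6 and 34.9 CPM in LGDMEM, and 40.1, 37.1 and 31.1 CPM in HGDMEM. In the Plasmax libraries it was at 165.4, 239.2 and 267.1 CPM. The lowest Plasmax library thus lay above 3 times the highest of the others, and the other 3 media overlapped. The log2 fold change was 2.66 against EMEM (SE 0.20, adjusted p = 7.33e-08), 2.58 against LGDMEM (SE 0.20, adjusted p = 7.8e-08) and 2.63 against HGDMEM (SE 0.20, adjusted p = 4.04e-08).

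MALAT1, the neighbour of NEAT1 on chromosome 11, rose by less. It was at 39.1, 36.7 and 47.5 CPM in EMEM, 37.9, 65.8 and 41.2 CPM in LGDMEM, 55.5, 47.0 and 34.1 CPM in HGDMEM, and 81.8, 92.9 and 130.4 CPM in Plasmax. All 3 Plasmax libraries were above every other, the nearest being LGDMEM 2. Its log2 fold change was 1.31 against EMEM (SE 0.23, adjusted p = 0.000521), 1.07 against LGDMEM (SE 0.23, adjusted p = 0.00256) and 1.157 against HGDMEM (SE 0.23, adjusted p = 0.000991). MALAT1 and the long form of NEAT1 do not end in a poly(A) tail, unlike the short form of NEAT1, and the isoform behind the tags cannot be told from the table.

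Proteins that build or bind paraspeckles were mostly not called, and those called were mostly lower in Plasmax. Of 19 measured, 1 rose and 6 fell against EMEM, 1 rose and 5 fell against LGDMEM, and 2 rose and 5 fell against HGDMEM, with medians of −0.17, −0.18 and −0.21. Among all genes, 10.0%, 9.48% and 12.8% rose and 12.1%, 11.7% and 14.1% fell in these comparisons. SFPQ, a core protein of the paraspeckle, was at 313.8 ± 8.56 CPM in EMEM and at 197.3 ± 14.6 CPM with Plasmax (log2 fold change −0.67, SE 0.13, adjusted p = 0.00107). RBM14, also needed to form the body, went from 26.7 ± 5.87 to 7.31 ± 3.28 CPM (−1.87, SE 0.32, adjusted p = 0.000417). HNRNPM, an RNA-binding protein found in paraspeckles, fell by 0.50 on the log2 scale. HNRNPH3, a splicing regulator and also one of these paraspeckle proteins, rose by 0.66. It was called higher in all 3 comparisons, and SFPQ, RBM14 and HNRNPM were called lower in all 3. The 12 not called against EMEM included NONO (0.12), PSPC1 (−0.44), HNRNPK (−0.04) and DAZAP1 (0.07). Without EMEM 1, 3 of the 19 fell against EMEM and 3 rose, and 2 or 3 rose without LGDMEM 1, LGDMEM 3 or Plasmax 1, with limma voom and in 6 other alternatives.

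**Figure D3:**
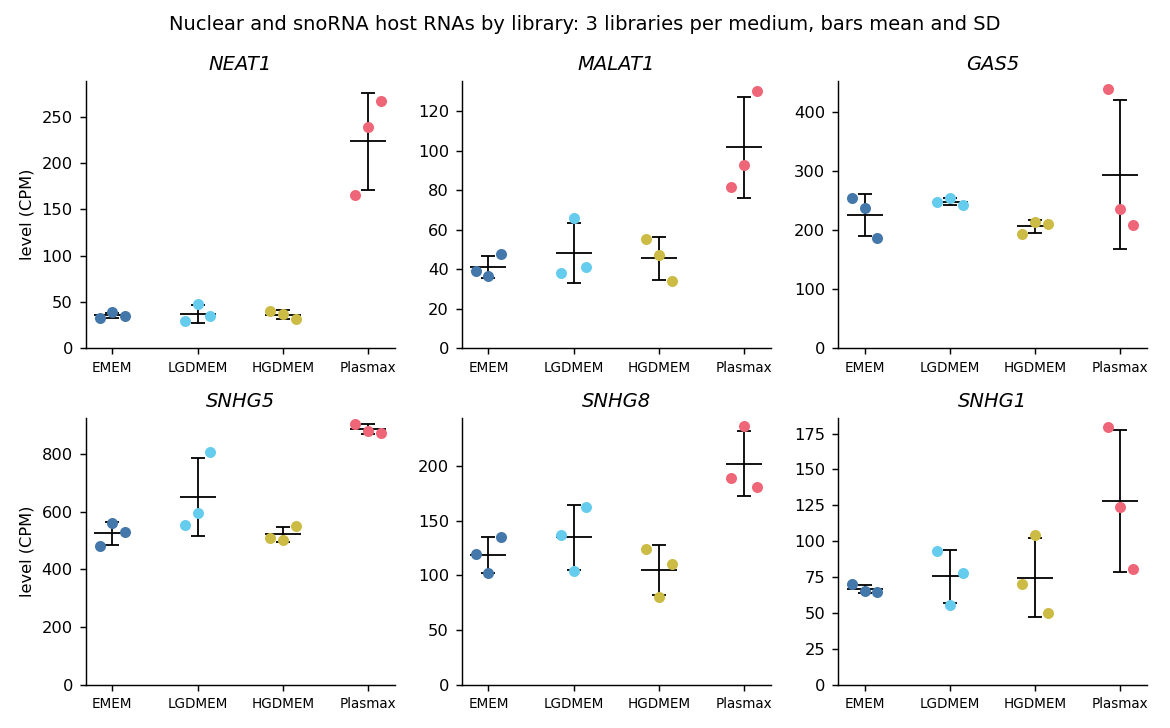
Level in CPM (vertical axis, from 0) of 6 RNAs in each library of the 4 media (horizontal). Coloured points are libraries, black bars the mean and SD of 3. NEAT1, MALAT1, SNHG5 and SNHG8 have every Plasmax library above the other 9, while GAS5 and SNHG1 spread widely in Plasmax, from 207.9 to 438.9 CPM and from 80.8 to 179.4 CPM.

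As snoRNA hosts 19 members were taken: the 14 SNHG genes, GAS5, EPB41L4A-AS1 and LRRC75A-AS1, LINC02001 and LINC00888, which RefSeq now names SNHG29, SNHG30 and SNHG33. They were chosen by an SNHG or GAS5 symbol or by a snoRNA gene inside them in the GENCODE 29 annotation. RefSeq places between 1 and 11 snoRNA genes within each, on either strand, and the other members were not searched in RefSeq. A few of the 19 hosts rose in Plasmax and most were not called. Against EMEM 4 rose, 1 fell and 14 were not called, with a median log2 fold change of 0.24. Against LGDMEM 4 rose and 0 fell (median 0.08). Against HGDMEM 5 rose and 0 fell (median 0.18). The share of the 19 that rose was 21.1%, 21.1% and 26.3%, beside 10.0%, 9.48% and 12.8% of all genes. Their summed level was 4013 to 4570 CPM in Plasmax, 3596 to 3895 CPM in EMEM, 3529 to 4322 CPM in LGDMEM and 3144 to 3734 CPM in HGDMEM, so that the Plasmax libraries overlapped with LGDMEM 3.

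Many snoRNA host genes start transcription at a C followed by a run of pyrimidines, the terminal oligopyrimidine tract known from ribosomal protein mRNAs. The windows below, 30 bases on each side of the RefSeq start (GRCh38.p14), show this stretch for the 5 hosts called higher in Plasmax and for 3 hosts that hold it and were not called, in capitals where a C is followed by at least 4 bases that are C or T and begins within 10 bases of the annotated start. Where a window holds more than 1 such stretch, only the longest is in capitals, and a longer run of C and T that begins farther out, as in SNHG7, is not marked.
SNHG5, chr6:85678704-85678763, minus strand: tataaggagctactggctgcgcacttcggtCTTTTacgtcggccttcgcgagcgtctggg
SNHG8, chr4:118278732-118278791, plus strand: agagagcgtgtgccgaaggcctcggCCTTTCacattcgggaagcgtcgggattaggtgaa
SNHG1, chr11:62855856-62855915, minus strand: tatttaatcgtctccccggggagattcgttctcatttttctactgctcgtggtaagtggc
SNHG7, chr9:136728155-136728214, minus strand: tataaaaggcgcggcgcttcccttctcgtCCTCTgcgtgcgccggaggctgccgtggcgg
EPB41L4A-AS1, chr5:112160496-112160555, plus strand: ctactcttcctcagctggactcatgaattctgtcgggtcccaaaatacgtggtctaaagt
SNHG12, chr1:28581844-28581903, minus strand: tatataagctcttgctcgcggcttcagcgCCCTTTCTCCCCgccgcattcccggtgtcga
SNHG16, chr17:76557734-76557793, plus strand: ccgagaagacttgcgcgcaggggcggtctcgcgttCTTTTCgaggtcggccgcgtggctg
SNHG19, chr16:2155329-2155388, minus strand: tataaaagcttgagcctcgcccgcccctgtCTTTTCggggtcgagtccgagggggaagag

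At least 1 such tract was found in 9 of the 16 hosts with a promoter in the RefSeq table, in 57 of 176 other members and in 31.3% of all 27305 promoters. Among the hosts called higher, SNHG5, SNHG8 and SNHG7 held it. SNHG1 and EPB41L4A-AS1 had none that began within 10 bases of the annotated start, although their printed windows hold such a run farther out. SNHG12, SNHG16 and SNHG19 held it and were not called in any comparison with Plasmax. The same was true of SNHG11, SNHG17 and LINC00888, whose windows are not printed. The minimum of 5 bases was set after these sequences had been seen.

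SNHG5, host of SNORD50A and SNORD50B, was at 481.8, 562.5 and 529.3 CPM in EMEM, 555.3, 595.0 and 807.1 CPM in LGDMEM, 509.7, 503.2 and 551.0 CPM in HGDMEM, and 904.6, 881.3 and 872.9 CPM in Plasmax. The Plasmax libraries lay close together and above all others, with LGDMEM 3 nearest. SNHG5 rose by 0.76 on the log2 scale against EMEM (SE 0.13, adjusted p = 0.000393), 0.44 against LGDMEM (SE 0.13, adjusted p = 0.019) and 0.77 against HGDMEM (SE 0.13, adjusted p = 0.000244). The call against LGDMEM was lost in a fit to those 2 media alone and without LGDMEM 1, LGDMEM 2 or Plasmax 1 (log2 fold changes of 0.44, 0.34, 0.38 and 0.43).

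SNHG8, host of SNORA24, rose from 118.9 ± 16.4 CPM in EMEM, 134.6 ± 29.5 CPM in LGDMEM and 104.9 ± 22.4 CPM in HGDMEM to 202.0 ± 29.9 CPM in Plasmax. Its Plasmax libraries, at 188.9, 236.2 and 180.9 CPM, were above the highest other library at 162.8 CPM. The log2 fold changes were 0.77 (SE 0.18, adjusted p = 0.00538), 0.59 (SE 0.18, adjusted p = 0.0267) and 0.95 (SE 0.18, adjusted p = 0.000842). Against LGDMEM SNHG8 lost its call without LGDMEM 1 (0.6), LGDMEM 2 (0.43) or Plasmax 2 (0.46).

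EPB41L4A-AS1, host of SNORA13, was at 75.7, 98.6 and 70.7 CPM in EMEM, 81.8, 74.9 and 99.6 CPM in LGDMEM, 85.9, 63.9 and 62.6 CPM in HGDMEM and 155.5, 162.6 and 141.8 CPM in Plasmax. No Plasmax library overlapped with any other. It rose by log2 fold changes of 0.91 (SE 0.16, adjusted p = 0.000682), 0.84 (SE 0.16, adjusted p = 0.00128) and 1.11 (SE 0.16, adjusted p = 6.95e-05).

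SNHG1, which carries 8 snoRNA genes, was at 69.9, 65.3 and 64.6 CPM in EMEM, 92.9, 55.8 and 77.9 CPM in LGDMEM, 70.0, 104.4 and 49.7 CPM in HGDMEM, and 179.4, 124.0 and 80.8 CPM in Plasmax. Plasmax 3 lay below LGDMEM 1 and HGDMEM 2. The log2 fold change was 0.94 against EMEM (SE 0.26, adjusted p = 0.0151), 0.76 against LGDMEM (SE 0.26, adjusted p = 0.0447) and 0.77 against HGDMEM (SE 0.26, adjusted p = 0.0347). The call rested on single libraries. It was lost against EMEM without EMEM 3 (0.92) or Plasmax 1 (0.62), against HGDMEM without HGDMEM 1 (0.73), HGDMEM 3 (0.55), Plasmax 1 (0.45) or Plasmax 2 (0.80), and against LGDMEM under 11 of 22 alternatives, with log2 fold changes of 0.44 (without Plasmax 1) to 0.79 (without Plasmax 2 or LGDMEM 3). The others were limma voom, the fit to 2 media, rows without a symbol kept, and leaving out EMEM 1, EMEM 2, EMEM 3, LGDMEM 2 or HGDMEM 1.

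GAS5, host to 11 snoRNA genes and named for its build-up in growth-arrested cells, was not called in any comparison. It was at 254.1, 236.7 and 186.4 CPM in EMEM, 247.1, 254.0 and 242.5 CPM in LGDMEM, 193.5, 214.4 and 210.5 CPM in HGDMEM, and 438.9, 235.3 and 207.9 CPM in Plasmax. Plasmax 1 stood far above, and the other 2 Plasmax libraries lay within the range of the rest. GAS5 had log2 fold changes of 0.38 against EMEM (SE 0.20, adjusted p = 0.191), 0.25 against LGDMEM (SE 0.20, adjusted p = 0.419) and 0.51 against HGDMEM (SE 0.20, adjusted p = 0.0682). Without Plasmax 1 it was −0.03 against EMEM, and without Plasmax 2 or Plasmax 3 it was called against HGDMEM (0.65 and 0.71).

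Among the other hosts, SNHG7, host of SNORA17A and SNORA17B, was called higher against HGDMEM, at 163.6 ± 13.4 CPM against 108.9 ± 11.6 CPM (0.59, SE 0.16, adjusted p = 0.0104), a call lost without HGDMEM 2 (0.50). Its log2 fold changes of 0.37 against EMEM and 0.32 against LGDMEM were not called, except without LGDMEM 3 (0.37 and 0.53), and whether they differ from 0.59 was not tested. SNHG25, host of SNORD104, went the other way against EMEM. It was at 280.8, 328.0 and 351.7 CPM in EMEM and at 233.8, 211.4 and 238.7 CPM in Plasmax (−0.49, SE 0.13, adjusted p = 0.00911), and the groups did not overlap. It was not called against LGDMEM (−0.20) or HGDMEM (−0.26), and without EMEM 3 its adjusted p against EMEM was 0.0531, at −0.42.

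LRRC75A-AS1, SNHG16 and SNHG6 were not called in any comparison. LRRC75A-AS1 was at 836.2 ± 74.4 CPM in EMEM, 855.9 ± 165.2 CPM in LGDMEM, 735.0 ± 69.2 CPM in HGDMEM and 829.8 ± 46.7 CPM in Plasmax (log2 fold change −0.01 against EMEM, SE 0.13). SNHG16 was at 676.2 ± 58.0 CPM in EMEM and 645.8 ± 44.5 CPM in Plasmax (−0.07, SE 0.14), and SNHG6 at 286.4 ± 26.1 CPM and 282.6 ± 12.2 CPM (−0.02, SE 0.12). For SNHG11, not called in any comparison, all 3 Plasmax libraries (44.7, 50.2 and 40.5 CPM) were below the other 9.

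**Figure D4:**
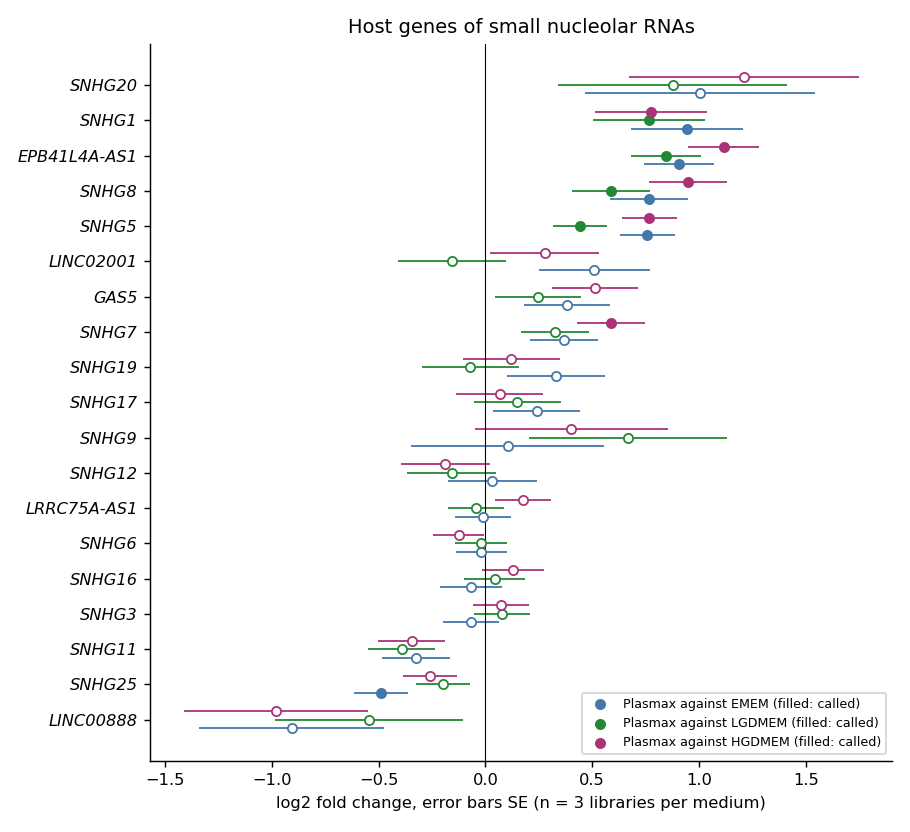
Log2 fold change (horizontal axis, error bars SE) of the 19 snoRNA host genes in Plasmax against EMEM (blue), LGDMEM (green) and HGDMEM (purple), ordered by the value against EMEM. Filled points were called, open points were not. SNHG1, EPB41L4A-AS1, SNHG8 and SNHG5 are filled in all 3 comparisons, with SNHG5 between 0.44 and 0.77, and SNHG25 is filled against EMEM at −0.49.

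The proteins that assemble snoRNAs into particles were called in both directions. Of 17 measured, 2 rose and 2 fell against EMEM and against LGDMEM, and 2 rose and 3 fell against HGDMEM. For this list and the next, the shares of all genes were 10.0%, 9.48% and 12.8% higher and 12.1%, 11.7% and 14.1% lower. NOP58, a core protein of box C/D particles, rose from 209.9 ± 20.8 CPM in EMEM to 312.5 ± 46.4 CPM (0.57), and DKC1, the pseudouridine synthase of box H/ACA particles, rose by 0.42 on the log2 scale, while NOP56, the partner of NOP58, fell by 0.55 and NOP10, of H/ACA particles, fell by 0.37. These calls were lost without Plasmax 2 for NOP58 (0.45), without EMEM 1, EMEM 2, Plasmax 2 or Plasmax 3 for DKC1 (0.39 to 0.42) and NOP10 (−0.38 to −0.32), and without EMEM 1, EMEM 3, Plasmax 1 or Plasmax 3 for NOP56 (−0.54 to −0.47). Of 19 measured factors of nonsense-mediated decay, 4 rose and 1 fell against EMEM, 1 rose and 2 fell against LGDMEM, and 4 rose and 3 fell against HGDMEM. The kinase SMG1 rose by 0.80 and UPF3B by 0.70 against EMEM, and the exon junction protein RBM8A fell by 0.53. UPF1, the central helicase, was at −0.31 against EMEM and not called (adjusted p = 0.0919), but was called lower against HGDMEM (−0.40, adjusted p = 0.0275). Against LGDMEM, SMG1 (0.68) and UPF3B (0.44) were not called. Without single EMEM or Plasmax libraries the calls against EMEM of SMG1 (EMEM 1, EMEM 3, Plasmax 2 or Plasmax 3, 0.62 to 0.85), UPF3B (EMEM 1, EMEM 2, Plasmax 1 or Plasmax 3, 0.61 to 0.71) and RBM8A (EMEM 3 or Plasmax 2, −0.45) were lost. The median of the list was 0.00, 0.09 and −0.01 in the 3 comparisons.

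The 11 microRNA host genes held 1 member that rose in all 3 comparisons, MIR34AHG, as did 5.83% of all genes. Mature microRNAs themselves are not polyadenylated and were not measured. The mature microRNAs that RefSeq (GRCh38.p14) places in the hosts called in any comparison with Plasmax, and in MIR4458HG, are printed with the seed, bases 2 to 8, in capitals, since the seed decides which messages a microRNA can pair with.
hsa-miR-34a-5p in MIR34AHG: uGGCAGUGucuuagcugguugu
hsa-miR-34a-3p in MIR34AHG: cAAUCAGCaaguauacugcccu
hsa-miR-4435 in MIR4435-2HG: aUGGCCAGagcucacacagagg
hsa-miR-3142 in MIR3142HG: aAGGCCUUucugaaccuucaga
hsa-miR-146a-5p in MIR3142HG: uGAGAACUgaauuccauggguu
hsa-miR-146a-3p in MIR3142HG: cCUCUGAAauucaguucuucag
hsa-miR-4458 in MIR4458HG: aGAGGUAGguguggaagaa
No seed was shared among these 7. That of miR-4458 is the seed of all 11 5′-arm let-7 microRNAs in the table.

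MIR34AHG, host of miR-34a, a microRNA known as a target of p53, was at 8.74, 17.1 and 12.0 CPM in EMEM, 12.4, 16.1 and 13.6 CPM in LGDMEM, 17.3, 16.6 and 10.8 CPM in HGDMEM, and 22.2, 22.8 and 38.2 CPM in Plasmax. No library of another medium reached the Plasmax range, in which Plasmax 3 stood above the other 2. MIR34AHG rose by log2 fold changes of 1.12 (SE 0.29, adjusted p = 0.00964), 0.98 (SE 0.29, adjusted p = 0.0218) and 0.89 (SE 0.29, adjusted p = 0.0272). Without Plasmax 3 it was 0.82, 0.68 and 0.59 and not called in any of the 3. The call was also lost against EMEM without EMEM 1 (0.93), against LGDMEM without LGDMEM 1 (0.90) or LGDMEM 3 (0.95) and against HGDMEM without HGDMEM 3 (0.71).

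MIR4435-2HG was lowest in HGDMEM, where its libraries agreed closely at 191.1, 196.5 and 190.6 CPM. It was at 396.4, 270.0 and 267.4 CPM in EMEM, 273.9, 229.8 and 287.3 CPM in LGDMEM and 344.0, 374.2 and 279.7 CPM in Plasmax. The difference between Plasmax and HGDMEM was called (0.79, SE 0.15, adjusted p = 0.000978), and those from EMEM (0.10) and LGDMEM (0.34) were not. Between HGDMEM and EMEM the log2 fold change was −0.69, with an adjusted p of 0.0873, and DESeq2 called it (adjusted p = 0.0104). MIR4435-2HG has a near-identical copy, CYTOR, so the share of reads given to each is uncertain. CYTOR was at 88.8 ± 4.51 CPM in EMEM, 72.7 ± 0.97 CPM in HGDMEM and 137.4 ± 16.8 CPM in Plasmax, called higher in Plasmax in all 3 comparisons (0.63, 0.65 and 0.92).

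MIR4458HG was at 38.4 ± 5.01 CPM in EMEM, 25.9 ± 1.17 CPM in LGDMEM, 28.7 ± 6.70 CPM in HGDMEM and 34.4 ± 4.61 CPM in Plasmax and was not called. MIR3142HG, which also holds miR-146a, was called higher against HGDMEM, at 8.55 ± 2.54 CPM against 2.75 ± 0.73 CPM (1.62, SE 0.57, adjusted p = 0.0409). That call was lost without EMEM 1, any 1 HGDMEM library, Plasmax 1 or Plasmax 3 (1.36 to 1.73). The host of the miR-17 to miR-92a cluster, MIR17HG, was at 3.99 ± 0.77 CPM in EMEM and 4.13 ± 2.92 CPM in Plasmax (log2 fold change 0.06, SE 0.64), and the hypoxia-responsive MIR210HG was at 2.69 ± 1.79 and 1.29 ± 1.76 CPM (−1.06, SE 1.06). With SEs of this size a change of 2-fold was not detectable for the low hosts. Of the 16 genes of microRNA processing, 2 rose and 1 fell against EMEM, where 10.0% of all genes rose and 12.1% fell. Against LGDMEM 3 rose and 1 fell (9.48% and 11.7% of all genes), and against HGDMEM 1 rose and 1 fell (12.8% and 14.1%). Values against EMEM follow. AGO2, the slicing Argonaute, rose from 35.7 ± 9.13 to 85.0 ± 13.9 CPM (1.25, adjusted p = 0.00275) and the hairpin exporter XPO5 rose by 0.53 on the log2 scale, while RAN, the GTPase that works with it, fell by 0.38. XPO5 lost its call against EMEM without any 1 EMEM library or Plasmax 1 (0.34 to 0.57), and was not called against LGDMEM (0.35) or HGDMEM (0.44).

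Of 55 LINC genes, 7 rose and 1 fell against EMEM, 4 rose and 0 fell against LGDMEM, and 9 rose and 1 fell against HGDMEM. The 12.7%, 7.27% and 16.4% that rose stand beside 10.0%, 9.48% and 12.8% of all genes, and the 1.82%, 0% and 1.82% that fell beside 12.1%, 11.7% and 14.1%. LINC00511 was at 23.1, 27.2 and 17.5 CPM in EMEM, 18.7, 22.8 and 17.4 CPM in LGDMEM, 20.1, 17.7 and 15.02 CPM in HGDMEM and 34.4, 45.5 and 34.7 CPM in Plasmax. Its log2 fold change was 0.76 against EMEM (SE 0.22, adjusted p = 0.0173), 0.96 against LGDMEM (SE 0.22, adjusted p = 0.00423) and 1.12 against HGDMEM (SE 0.22, adjusted p = 0.000958). The call against EMEM was lost without EMEM 3 (0.60) or Plasmax 2 (0.61).

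LINC00662 rose from 3.4 ± 0.50 CPM in EMEM, 4.58 ± 2.26 CPM in LGDMEM and 4.40 ± 0.92 CPM in HGDMEM to 11.3 ± 3.35 CPM in Plasmax (1.72, SE 0.44, adjusted p = 0.00911 against EMEM). All Plasmax libraries, from 9.10 to 15.2 CPM, were above the others. Its call was lost without Plasmax 2 in each comparison (1.45, 1.02 and 1.08), against LGDMEM also without LGDMEM 1, LGDMEM 3, Plasmax 1 or Plasmax 3 (0.95 to 1.42) or in the fit to the 2 media (1.28), and against HGDMEM without HGDMEM 1 or HGDMEM 3 (1.28 and 1.26). LINC02365 was at 3.34 ± 0.48 CPM in EMEM and 11.2 ± 5.18 CPM in Plasmax (1.74, SE 0.47, adjusted p = 0.0116). It rose against HGDMEM too, by 1.74, and was not called against LGDMEM (1.15), except without Plasmax 1 (1.45). Both calls were lost without Plasmax 3, with values of 1.38 and 1.37.

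Calls for the remaining LINC genes were less firm. LINC00963 (24.4 ± 1.63 to 42.2 ± 15.4 CPM, log2 fold change 0.79, adjusted p = 0.0489) and LINC01278 (3.06 ± 1.88 to 8.71 ± 2.30 CPM, 1.47, adjusted p = 0.047) each lost their call against EMEM under 10 alternatives, with values of 0.58 to 0.84 and of 1.08 to 1.61, including without EMEM 1, EMEM 3, HGDMEM 2, Plasmax 1 or Plasmax 2 for both. LINC00963 also lost it without EMEM 2 or LGDMEM 2, and LINC01278 without HGDMEM 1, HGDMEM 3 or Plasmax 3. LINC00667 (10.2 ± 2.95 to 18.7 ± 3.48 CPM, 0.88, adjusted p = 0.0359) lost it without EMEM 2, EMEM 3, Plasmax 1 or Plasmax 2 (0.69 to 0.87). LINC01578, which RefSeq names CHASERR and which restrains its neighbour CHD2, was at 69.5 ± 6.70 CPM in EMEM and 57.5 ± 15.9 CPM in Plasmax and was not called (−0.27, SE 0.22). The member that fell against EMEM and HGDMEM was LINC00668, named after its values were seen, at 6.47 ± 1.63, 8.71 ± 1.37 and 1.93 ± 0.63 CPM in EMEM, HGDMEM and Plasmax (−1.74 and −2.16). Its call against EMEM was lost with limma voom, with rows without a symbol kept and without any 1 EMEM, HGDMEM or Plasmax library (−1.94 to −1.51), and that against HGDMEM without Plasmax 3 (−1.93).

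The 140 antisense genes had 12 higher and 2 lower against EMEM, 17 higher and 2 lower against LGDMEM, and 15 higher and 4 lower against HGDMEM. The shares called higher, 8.57%, 12.1% and 10.7%, were near those of all genes (10.0%, 9.48% and 12.8%), and the shares called lower, 1.43%, 1.43% and 2.86%, were below them (12.1%, 11.7% and 14.1%). ZNF528-AS1, antisense to a zinc finger gene, was at 2.91, 5.70 and 7.36 CPM in EMEM, 4.80, 0.20 and 2.94 CPM in LGDMEM, 4.50, 4.97 and 3.60 CPM in HGDMEM, and 29.5, 33.2 and 29.6 CPM in Plasmax. The 3 Plasmax libraries agreed closely and the highest other value was 7.36 CPM. ZNF528-AS1 rose by 2.51 on the log2 scale against EMEM (SE 0.47, adjusted p = 0.000899), 3.58 against LGDMEM (SE 0.52, adjusted p = 8.81e-05) and 2.81 against HGDMEM (SE 0.48, adjusted p = 0.000271). Its namesake ZNF528 was at 3.82, 2.49 and 2.08 CPM in the 3 media and 8.37 CPM in Plasmax, called against LGDMEM (1.73) and HGDMEM (1.97) but not EMEM (1.12, adjusted p = 0.125), the first lost without LGDMEM 1, LGDMEM 2, Plasmax 1 or Plasmax 3 (1.49 to 1.74).

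ZMIZ1-AS1 had the same pattern, at 4.61, 1.42 and 3.79 CPM in EMEM, 2.02, 0.98 and 3.62 CPM in LGDMEM, 1.69, 3.15 and 0.85 CPM in HGDMEM, and 17.9, 14.8 and 14.7 CPM in Plasmax. All Plasmax libraries lay above 14 CPM and all others below 5 CPM. It rose by log2 fold changes of 2.29 (SE 0.52, adjusted p = 0.00404), 2.84 (SE 0.54, adjusted p = 0.00117) and 3.01 (SE 0.54, adjusted p = 0.00046). ZMIZ1, which encodes a transcriptional co-activator, rose with it by 0.66, 0.72 and 1.15, and lost its call against EMEM without EMEM 1, EMEM 3 or Plasmax 2 (0.65, 0.59 and 0.56) and against LGDMEM without Plasmax 2 (0.62).

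SLC16A1-AS1 rose while its namesake did not change detectably. It was at 8.74, 4.09 and 7.15 CPM in EMEM, 10.6, 9.63 and 12.4 CPM in LGDMEM, 8.82, 12.8 and 7.19 CPM in HGDMEM, and 25.5, 30.7 and 21.1 CPM in Plasmax. Plasmax was again separate from the other 9 libraries. SLC16A1-AS1 rose by 1.97 (SE 0.32, adjusted p = 0.000243), 1.24 (SE 0.30, adjusted p = 0.00663) and 1.42 (SE 0.30, adjusted p = 0.00192). SLC16A1, the lactate and pyruvate transporter MCT1, was at 262.3 CPM in EMEM and 255.9 CPM in Plasmax (−0.04, adjusted p = 0.864), with 0.20 and 0.11 in the other comparisons.

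TNRC6C-AS1 was at 7.86 ± 4.1 CPM in EMEM and 24.3 ± 3.85 CPM with Plasmax (1.62, SE 0.42, adjusted p = 0.00915). It was called against HGDMEM (1.25), a call lost without HGDMEM 2, HGDMEM 3, Plasmax 2 or Plasmax 3 (1.10 to 1.26), and not against LGDMEM (0.88), where LGDMEM 3 was at 23.8 CPM and the other 2 at 7.57 and 8.26 CPM. Without LGDMEM 3 it was called there too (1.61, adjusted p = 0.00601). RefSeq lists this symbol as a synonym of the protein-coding gene TMC6, so its reads may be of that gene. ZNF561-AS1 went from 2.49 ± 1.27 to 7.83 ± 3.98 CPM (1.61, SE 0.54, adjusted p = 0.039), a call lost with limma voom (1.52) and without EMEM 1, EMEM 3 or Plasmax 3 (1.36, 1.5 and 1.12). NCBP2-AS2, for which RefSeq gives a protein-coding gene, was not called, at 153.6 ± 3.29 and 141.5 ± 21.8 CPM (−0.12, SE 0.14).

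MRPL20-AS1 and NR2F1-AS1, the other antisense genes called higher in all 3 comparisons, are named after their values were seen. MRPL20-AS1 rose from 18.1 ± 7.27 CPM in EMEM, 19.8 ± 1.33 CPM in LGDMEM and 25.0 ± 5.69 CPM in HGDMEM to 40.8 ± 2.37 CPM (1.156, 1.04 and 0.71), while the mitochondrial ribosomal protein gene MRPL20 was at 59.5 and 54.5 CPM in EMEM and Plasmax (−0.12, adjusted p = 0.648). Its call against HGDMEM was lost with rows without a symbol kept and without EMEM 3, LGDMEM 2, HGDMEM 1, HGDMEM 2 or any 1 Plasmax library (0.57 to 0.76). NR2F1-AS1 passed the minimum of the table through the Plasmax libraries alone, so its values are given as a description. It had 3 reads over the EMEM libraries and 76 over the Plasmax libraries, and was at 0.84 ± 0.56 CPM in LGDMEM, 0.75 ± 0.33 CPM in HGDMEM and 5.09 ± 1.51 CPM in Plasmax. The call of NR2F1-AS1 was lost against LGDMEM without LGDMEM 1, LGDMEM 3, Plasmax 1 or Plasmax 2 and against HGDMEM without HGDMEM 2, HGDMEM 3 or Plasmax 1 (2.12 to 2.63). MAFA-AS1, likewise outside the rule for names, had 2 reads in LGDMEM and 72 in Plasmax, a ratio of 32.4 after scaling with a 95% exact interval of 8.65 to 273 that covers counting error only. Such ratios were computed only where a medium had at most 3 reads, which favours large ones. MAFA-AS1 was not called against EMEM (1.77, adjusted p = 0.18) or HGDMEM (1.99, adjusted p = 0.125), except against HGDMEM without HGDMEM 3 (3.64).

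IDH1-AS1 was the member lower in all 3 comparisons. It was at 8.74, 9.97 and 9.68 CPM in EMEM, 8.83, 10.6 and 8.60 CPM in LGDMEM, 10.5, 12.1 and 20.5 CPM in HGDMEM, and 6.18, 2.84 and 4.13 CPM in Plasmax, with no overlap. The log2 fold change was −1.11 (SE 0.36, adjusted p = 0.0346), −1.09 (SE 0.37, adjusted p = 0.0391) and −1.71 (SE 0.36, adjusted p = 0.00173). The calls against EMEM and LGDMEM were lost with limma voom (−1.19 and −1.17), in the fit to 2 media (−1.11 and −1.10), without Plasmax 2 (−0.87 and −0.86) or Plasmax 3 (−1.07 and −1.06) and without any 1 EMEM (−1.16 to −1.07) or LGDMEM library (−1.16 to −0.996). Its namesake IDH1, the cytosolic isocitrate dehydrogenase that makes NADPH, fell in the same libraries, from 1208 CPM in EMEM, 1446 CPM in LGDMEM and 1746 CPM in HGDMEM to 497.1 CPM (−1.28, −1.54 and −1.81, the first with adjusted p = 1.96e-07).

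TBX2-AS1 fell with its namesake TBX2, a repressor of the T-box family. It was at 16.3 ± 3.48 CPM in EMEM and 8.99 ± 1.10 CPM in Plasmax (−0.85, SE 0.29, adjusted p = 0.0436), and TBX2 was at 13.0 and 5.74 CPM (−1.17, adjusted p = 0.0196). Against HGDMEM they fell by 0.997 and by 1.39 on the log2 scale, the first not called without Plasmax 2 (−0.90), and against LGDMEM neither was called (−0.55 and −0.69). The call of TBX2-AS1 against EMEM was lost under 10 alternatives (−0.93 to −0.69), namely library-size scaling, limma voom and leaving out EMEM 1, EMEM 3 or any 1 HGDMEM or Plasmax library. TBX2 lost its own without EMEM 1, Plasmax 2 or Plasmax 3 (−1.06, −1.19 and −1.03). OIP5-AS1, known as Cyrano, which directs the decay of a microRNA, fell against HGDMEM, from 105.4 ± 5.54 to 72.0 ± 8.40 CPM (−0.55), and its namesake, the centromere gene OIP5, fell by 1.92. DDN-AS1 against HGDMEM (−0.91) and MELTF-AS1 against LGDMEM (−1.63) completed the 7 members that were lower in a comparison, these 3 named after their values were seen. The call of DDN-AS1 was lost without HGDMEM 1, HGDMEM 3, Plasmax 1 or Plasmax 2 (−0.92 to −0.74), and that of MELTF-AS1 under 12 alternatives, including without any 1 EMEM or LGDMEM library, HGDMEM 3, Plasmax 2 or Plasmax 3 (−1.76 to −1.41).

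Across all name-bearing members, called or not, the changes of the long non-coding RNA and of its namesake were only loosely related. Of 160 antisense, divergent and intronic RNAs, 123 had their namesake in the table. The log2 fold changes had the same sign in 69 of 123 pairs against EMEM, 64 against LGDMEM and 66 against HGDMEM, with Spearman correlations over pairs of 0.12, 0.12 and 0.09. These are descriptions across genes measured in the same libraries, which are not independent. Of 9 members with a measured namesake that rose against EMEM, 2 had a namesake that rose, 0 had one that fell and 7 had one that was not called. Against LGDMEM this was 4, 2 and 9 of 15, and against HGDMEM 5, 0 and 10 of 15. Over all 123 pairs the namesake rose in 15, 17 and 19 in the EMEM, LGDMEM and HGDMEM comparisons. Where both genes of a pair were called, their direction was the same in 4 of 4, 5 of 7 and 8 of 8 pairs. The 2 opposite pairs against LGDMEM, named after their values were seen, were SLC25A25-AS1 (2.15) with SLC25A25 (−0.78) and TMEM147-AS1 (1.43) with TMEM147 (−0.40). All 4 calls were lost without some single libraries, SLC25A25-AS1 without LGDMEM 1, LGDMEM 3 or any 1 Plasmax library (1.69 to 2.29), SLC25A25 under 15 alternatives, among them without EMEM 2, LGDMEM 1, LGDMEM 2 or any 1 HGDMEM or Plasmax library (−0.93 to −0.63), TMEM147-AS1 without LGDMEM 1, LGDMEM 2 or Plasmax 2 (1.29 to 1.4) and TMEM147 without LGDMEM 3 or any 1 Plasmax library (−0.41 to −0.34). The strand setting of the counting is not given in the sources used here, so reads of overlapping antisense pairs may have been assigned to either gene.

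**Figure D5:**
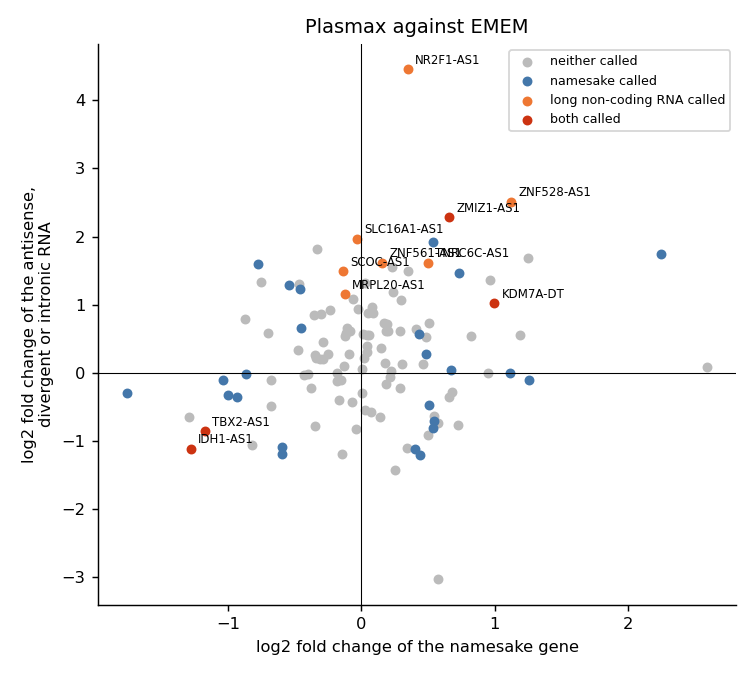
Log2 fold change in Plasmax against EMEM of 123 antisense, divergent and intronic RNAs (vertical axis) and of the genes they are named after (horizontal axis). Red points have both members called, orange the long non-coding RNA alone, blue the namesake alone and grey neither. ZMIZ1-AS1 and KDM7A-DT lie at the upper right, IDH1-AS1 and TBX2-AS1 at the lower left, and SLC16A1-AS1 lies near 0 on the horizontal axis.

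Of the 18 divergent transcripts, which start close to a promoter and run away from it, 1 rose against EMEM, 1 against LGDMEM and 2 against HGDMEM (5.56%, 5.56% and 11.1%), and none fell. The shares of all genes were 10.0%, 9.48% and 12.8% for higher and 12.1%, 11.7% and 14.1% for lower. KDM7A-DT was at 12.1 ± 4.2 CPM in EMEM and rose to 24.9 ± 7.65 CPM (1.02, SE 0.30, adjusted p = 0.0188), together with the histone demethylase gene KDM7A, at 15.2 and 30.6 CPM (1.00, adjusted p = 0.0117). Its call was lost without EMEM 1, EMEM 3, Plasmax 1 or Plasmax 2 (0.83 to 0.96), that of KDM7A without EMEM 1 or EMEM 3 (0.92 and 0.77), and that against HGDMEM (0.89) without HGDMEM 1, HGDMEM 2, Plasmax 1 or Plasmax 2 (0.70 to 0.92). EIF3J-DT was above all others in every Plasmax library (20.5 ± 1.87 CPM, against 13.3 ± 3.32 CPM in EMEM). It was not called against EMEM (0.61, adjusted p = 0.0883), LGDMEM (0.51, adjusted p = 0.162) or HGDMEM (0.68, adjusted p = 0.0506). With 1 library left out, it was called against EMEM without EMEM 2 (0.82) and against HGDMEM without EMEM 2 or EMEM 3 (0.68 in both).

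The 2 intronic transcripts were not called. HS1BP3-IT1 was at 6.71 ± 2.14 CPM in EMEM and 6.64 ± 1.39 CPM in Plasmax (−0.02, SE 0.40), while its host HS1BP3 fell from 21.9 to 12.0 CPM (−0.86, adjusted p = 0.0171), a call lost without EMEM 1 (−0.81) or Plasmax 1 (−0.73). ALMS1-IT1 had too few reads to compare, with 0.93 ± 1.6 to 2.67 ± 2.02 CPM in the 4 media, and passed the test against LGDMEM only without LGDMEM 1 (adjusted p = 0.0411). Genes of the nuclear RNA exosome, which degrades many unstable non-coding transcripts, were called in both directions. Of 20 measured, 4 rose and 1 fell against EMEM, 2 rose and 3 fell against LGDMEM, and 3 rose and 5 fell against HGDMEM. Beside them stand 10.0%, 9.48% and 12.8% of all genes higher and 12.1%, 11.7% and 14.1% lower. The core subunit EXOSC8 fell by 0.58 on the log2 scale against EMEM, EXOSC5 rose by 0.65, and ZFC3H1 and ZCCHC8, which bring targets to the exosome, rose by 0.70 and 0.86. The call of ZFC3H1 was lost without EMEM 1, EMEM 3, Plasmax 1 or Plasmax 3 (0.61 to 0.68) and that of ZCCHC8 without EMEM 1, EMEM 3, Plasmax 2 or Plasmax 3 (0.67 to 0.88).

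Near the H19 gene on chromosome 11 lies IGF2, the growth factor gene that shares its imprinting control. Of 9 measured genes of that region and of IGF2 mRNA binding and reception, 3 rose and 0 fell in Plasmax against each other medium. All genes had 10.0%, 9.48% and 12.8% higher and 12.1%, 11.7% and 14.1% lower against EMEM, LGDMEM and HGDMEM. PHLDA2, an imprinted growth restrainer, was at 26.01 CPM in EMEM and 84.0 CPM with Plasmax (1.69, adjusted p = 0.000185), and the clearance receptor IGF2R from 211.0 to 409.7 CPM (0.96, adjusted p = 0.000148). IGF2 itself was at 2.44, 7.94 and 8.38 CPM in EMEM, LGDMEM and HGDMEM and 14.6 CPM in Plasmax, called against EMEM alone (2.52, adjusted p = 0.0051).

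Among the 3 media without Plasmax no long non-coding RNA was called. For LGDMEM against EMEM edgeR's test passed 0 of 243 members (0.0731% of all genes), for HGDMEM against EMEM 0 (0.164%), and for HGDMEM against LGDMEM 0 (0.0640%). At an unadjusted p under 0.05 there were 17, 13 and 12 members (7%, 5.35% and 4.94%, beside 7.91%, 7.58% and 7.86% of all genes). limma voom called 0 in each, and DESeq2 called 1, MIR4435-2HG, for HGDMEM against EMEM. The members with the lowest p were DPP10-AS1 between LGDMEM and EMEM (6.17 against 2.04 CPM, log2 fold change 1.59, adjusted p = 0.35), MIR4435-2HG between HGDMEM and EMEM, and NDUFB2-AS1 between HGDMEM and LGDMEM (0.77 against 3.50 CPM, −2.16, adjusted p = 0.396). NEAT1 differed by log2 values of at most 0.08 among these media and MALAT1 by at most 0.24. FGD5-AS1, called higher in Plasmax against LGDMEM alone (0.83), was lowest in LGDMEM, at 29.5 ± 2.91 CPM against 42.4 to 52.3 CPM in the other 3, and was not called between LGDMEM and EMEM (−0.56, adjusted p = 0.421).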

How the data were processed

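Counts per gene were deposited by the authors as 1 table of 11546 rows, raw from their range and totals. Per the submitters' processing notes, FastQC 0.72, cutadapt 1.16, STAR 2.7.5b, featureCounts 1.6.3, limma 3.40.6 and the build hg19/GRCh37 were used, with no role given. Every row reached 2.51 CPM in at least 3 libraries, so totals may not be full depth. The 601 rows without a symbol (2.92 to 3.71% of counts) were left out, and 0 columns belonged to other samples.

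Differences were tested with edgeR 4.0.16 (R 4.3.3) on TMM-scaled counts of all 12 libraries, whose own filter removed 0 genes. SE is the log2 fold change over the square root of F. Alternatives were 3 other scalings, no filter, a mean of at least 5 CPM, DESeq2 1.42.0, limma voom (3.58.1), a replicate block, fits to 2 media, rows without a symbol kept, and each library left out. The tests were tried on simulated data.

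Named are MALAT1, NEAT1 and GAS5, the 3 members with most reads per class, up to 5 largest called changes per class and direction against EMEM averaging 5 CPM or more in those 6 libraries, any member called between other media, and their namesakes. Names outside this were chosen after their values were seen. Members and lists were chosen with earlier results of these data known. RefSeq matched 211 members by symbol and 32 by synonym, of which 239 are annotated as lncRNA. Sequences are from RefSeq (GRCh38.p14), another build than that of the counts. Some results are not reported here.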

Additional observations from a re-analysis of the deposited data

How the results depend on the processing

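The numbers of members called higher in Plasmax held within 1.5 times under all alternatives except some that leave out a library. Leaving out each library, members called higher ranged from 19 to 29 against EMEM, 16 to 30 against LGDMEM (17 without LGDMEM 1, 16 without LGDMEM 2 or Plasmax 2) and 22 to 35 against HGDMEM (22 without Plasmax 1, 23 without Plasmax 2). Members called lower ranged from 0 (without EMEM 3) to 4 against EMEM, with 1 without EMEM 1 and 2 without HGDMEM 3 or Plasmax 1. They ranged from 0 (without LGDMEM 1, LGDMEM 3 or Plasmax 2) to 3 (without Plasmax 1) against LGDMEM, with 1 without any EMEM library, LGDMEM 2, HGDMEM 3 or Plasmax 3, and from 4 to 6 against HGDMEM. Those called ranged from 0 to 1 between HGDMEM and EMEM (MIR4435-2HG without LGDMEM 3) and between HGDMEM and LGDMEM (ZSCAN16-AS1 without LGDMEM 1). DESeq2 called 8 members lower against EMEM, and limma voom 1. Against LGDMEM 1 was lower with upper-quartile scaling, 0 with limma voom and 0 in the fit to the 2 media. DESeq2 called 1 member between HGDMEM and EMEM. The media share replicate numbers. No comparison had a correlation above 0.1 between same-numbered libraries for all 3 numbers over the 10945 genes. Among the 4366 genes whose mean log2 CPM was over 5, HGDMEM with EMEM (0.186, 0.11 and 0.124) and HGDMEM with LGDMEM (0.246, 0.165 and 0.21) had it, LGDMEM with EMEM did not (0.325, 0.193 and −0.0121), and neither did any comparison with Plasmax, where the highest was 0.14 for number 3 with EMEM. With the replicate block, 24, 28 and 32 members rose and 4, 3 and 6 fell against EMEM, LGDMEM and HGDMEM, and 0 were called between the other media.

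Signs of values near 0 against EMEM changed in some settings, none of them called. Leaving out each library gave log2 fold changes of −0.0264 (without Plasmax 1) to 0.578 for GAS5, −0.00214 to 0.308 for MIR4435-2HG, −0.0931 to 0.0212 for SNHG6, −0.0667 to 0.0592 for LRRC75A-AS1, −0.203 to 0.251 for HS1BP3-IT1, −0.228 to 1.62 for ALMS1-IT1, −0.108 to 0.0344 for SLC16A1, −0.131 to 0.372 for ZNF561 and −0.285 to 0.577 for ALMS1. Library-size scaling gave 0.00241 for SNHG6, 0.0109 for LRRC75A-AS1 and 0.00356 for HS1BP3-IT1, upper-quartile scaling 0.00292 for LRRC75A-AS1, and the replicate block 0.0433 for HS1BP3-IT1. The cause was not tested. Members under 10 CPM have few counts, and their lack of a call says little.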

Other observations

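Some well-known long non-coding RNAs carry symbols outside the naming rule and were picked here by symbol. ZFAS1, also a host of snoRNAs, rose in Plasmax in all 3 comparisons, to 548.9 ± 5.99 CPM beside 264.9 ± 8.38 CPM in EMEM, 340.2 ± 100.9 CPM in LGDMEM and 249.0 ± 20.4 CPM in HGDMEM (log2 fold changes 1.05, 0.69 and 1.14). TUG1 was at 26.6 ± 4.92 CPM in EMEM and rose to 40.3 ± 3.22 CPM (0.59, SE 0.19, adjusted p = 0.0276), and by 0.68 and 0.54 against LGDMEM and HGDMEM. Its call was lost against EMEM without EMEM 1, EMEM 3, Plasmax 1 or Plasmax 3 (0.46 to 0.59) and against HGDMEM without any 1 HGDMEM library, Plasmax 1 or Plasmax 3 (0.45 to 0.58). JPX and FTX of the X-inactivation centre, PVT1, DANCR, OLMALINC, PINK1-AS and the imprinted KCNQ1OT1 were not called in any comparison with Plasmax. KCNQ1OT1 was at 28.96 ± 9.86 CPM in EMEM and 28.7 ± 2.94 CPM in Plasmax (−0.01, SE 0.30), and DANCR, another snoRNA host, at 55.4 ± 6.55 and 63.0 ± 5.95 CPM (0.18, SE 0.15).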
